A study of Mus musculus with 4 samples.

Results

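The mRNAs described here encode 10 proteins that bind microtubules or their tubulin subunits, namely the microtubule-associated proteins MAP1A, MAP1B, MAP2, MAP4, MAP6 and tau (Mapt), doublecortin (Dcx), doublecortin-like kinase 1 (Dclk1), and the stathmins STMN1 and STMN2. They were chosen by name, and all 10 were found among the 31053 genes of the count tables. Their RNA was measured in primary cortical neurons of wild-type (WT) mice, which the study cultured from late embryos of the C57BL/6J strain, adding floxuridine to hold back dividing cells. 2 libraries held RNA pulled down together with the small-subunit ribosomal protein RPS2 after crosslinking and RNase I trimming (RPS2 eCLIP IP). 2 libraries held total RNA that the study took from the samples ahead of the pulldown. All 4 libraries share the genotype and the cell type, and the cultures carried no treatment that the labels name. The labels name rRNA depletion for the IP libraries only, and the study's methods do not say which libraries were depleted. If the total RNA libraries were not, any effect of that step and the effect of the IP cannot be told apart.

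Microtubules are the tracks along which axons and dendrites are supplied, and structural microtubule-associated proteins bind along them and make them more stable. MAP2 is the standard marker of dendrites, tau is concentrated in axons, and the protein of the Map2 gene is made in part from mRNA carried into dendrites. Stathmins do the reverse and bind free tubulin dimers or promote shrinkage of the microtubule. Doublecortin marks young neurons that migrate and extend processes, and Dclk1 encodes its kinase relative. The ratio of RPS2 IP to total RNA served in the study as a measure of ribosome occupancy per mRNA, and the question here was whether mRNAs of dendritic and axonal proteins of this kind differed in it.

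The members fall into families whose coding sequences are related, and reads that align equally well to several loci were not counted. The longest identical coding stretches are therefore shown, in capitals, with the neighbouring coding bases in lower case where they were needed to reach about 30 bases. They come from GENCODE M21 transcripts on mm10. In the MAP1 family the shared stretch ran over 26 bases and lay in single coding exons, at chr2:121299518-121299543 (plus strand) in Map1a and chr13:99435421-99435446 (minus strand) in Map1b.
Map1a: tcAAGCTCTCCAAGCCTTGCTGTTACATct
Map1b: tgAAGCTCTCCAAGCCTTGCTGTTACATtt
In the doublecortin family it ran over 23 bases, at chrX:143923210-143923232 (minus strand) in Dcx and chr3:55256068-55256090 (plus strand) in Dclk1.
Dcx: agcGGGGTGAAGCCACGGAAGGCTGTgcg
Dclk1: agtGGGGTGAAGCCACGGAAGGCTGTcag
In the family of MAP2, tau and MAP4, whose proteins share microtubule-binding repeats, it was much shorter, with 14 bases between Map2 (chr1:66431575-66431588, plus strand) and Map4 (chr9:110072661-110072674, plus strand) and 11 bases between Mapt and Map2.
Map2: agtcaagaTGTGGTTCCAAGGAtaacatca
Map4: aatccaagTGTGGTTCCAAGGAcaatatta
The stathmins shared the longest one, 43 coding bases at chr4:134472879-134472921 in Stmn1 and chr3:8554867-8554909 in Stmn2, both on the plus strand.
Stmn1 and Stmn2: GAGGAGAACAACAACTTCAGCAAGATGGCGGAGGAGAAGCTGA

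Stmn1 was the member with most sequence in common with other genes. Of its 1956 different 30-base words, 442 (22.6%) also occurred in transcripts of another gene, among them the processed pseudogene Gm11223. A small RNA annotated as a miRNA gene (Gm23634) also lay within its counted exons. The counts of Stmn1 are uncertain for these reasons. For the other 9 members the share of such words ran from 0.013% in Map1b and Mapt to 2.14% in Map1a, which overlaps the gene Ppip5k1 on the opposite strand, kept apart by the stranded counting. In none of these 9 members did a small RNA lie in counted exons.

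The 4 libraries held between 4899718 and 16460545 counts. Of these, the 10 members together took 0.627% (0.623 to 0.631) and 0.780% (0.774 to 0.785) in IP replicates 1 and 2, against 0.634% (0.627 to 0.641) and 1.05% (1.04 to 1.06) in total RNA, with 95% Wilson intervals that cover counting error only. Gm42418 alone took 42.6% and 27.9% of the counts in IP replicates 1 and 2, and 39.8% and 15.3% in total RNA. Its share was thus higher in replicate 1 in both kinds of library. In its single-cell data the study removed cells by their counts of this gene. What its reads derive from was not tested here. Without Gm42418 the members' share ran from 1.05% to 1.24%. Every member had at least 79 counts in every library, and all 10 passed the filter on low counts. Levels are given below as CPM, the count scaled to library size after TMM normalisation, and as CPM per kilobase of exon where genes are compared with each other.

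The identity of the cells was checked on markers. All 6 neuronal markers passed the filter on low counts, with a summed level of 2285 to 2920 CPM over the libraries. The lowest single value was 191 CPM, for Rbfox3 in IP replicate 2. The 7 astrocyte markers summed to 3624 CPM in IP replicate 1 and 1555 in IP replicate 2, and to 2960 and 1411 in total RNA, so replicate 1 held more astrocyte RNA in both kinds of library. The 6 microglial markers followed the same split, at 60.4 and 6.83 CPM in the IP against 60.1 and 4.93 in total RNA, with P2ry12, Tmem119 and Aif1 under 10 counts in every library. The 6 markers of dividing progenitors summed to 81.3 to 112 CPM, nearly all of it from Nes, Sox2 and Pax6, while Mki67, Top2a and Eomes stayed under 10 counts everywhere. The 6 oligodendrocyte markers summed to 51.8 to 66.6 CPM, and Mog had no more than 1 count in a library. The 4 endothelial and mural markers summed to 5.66 to 24.1 CPM, and Cldn5 was at 0 in every library. The cultures were thus mixtures of neurons and glia, and in bulk RNA fewer cells of a type cannot be told apart from less RNA per cell.

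Most members were abundant mRNAs. Map1a stood first, at 220 and 190 CPM per kilobase in total RNA replicates 1 and 2 and 207 and 151 in the IP. This placed it at percentile 99.5 of the 12336 genes tested. Map1b came next with 104 and 132 in total RNA and 107 and 102 in the IP. Dclk1 held 62.8 and 90.5 in total RNA, and Map2 held 59.9 and 77.7. Those values overlapped, so the order of Dclk1 and Map2 could not be set beyond the spread of the 2 replicates. Stmn2 (49.5 and 55.2), Mapt (38.9 and 48.8) and Map6 (31.4 and 33.9 CPM per kilobase in total RNA) followed without overlap between neighbours.

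At the lower end, Stmn1 measured 30.8 and 17.2 CPM per kilobase in total RNA and Map4, the microtubule-associated protein of dividing and non-neuronal cells as well as neurons, measured 17.4 and 24.6. These also overlapped. Dcx lay far below all the others at 1.39 and 1.09, at percentile 23.1 of genes tested, while its relative Dclk1 lay at percentile 97.8. Levels per kilobase use the joint length of all annotated exons, which understates a gene whose main transcript is shorter than that. This concerns Dcx, with 12647 bases of annotated exon and a coding region of 1101 bases.

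**Figure D1:**
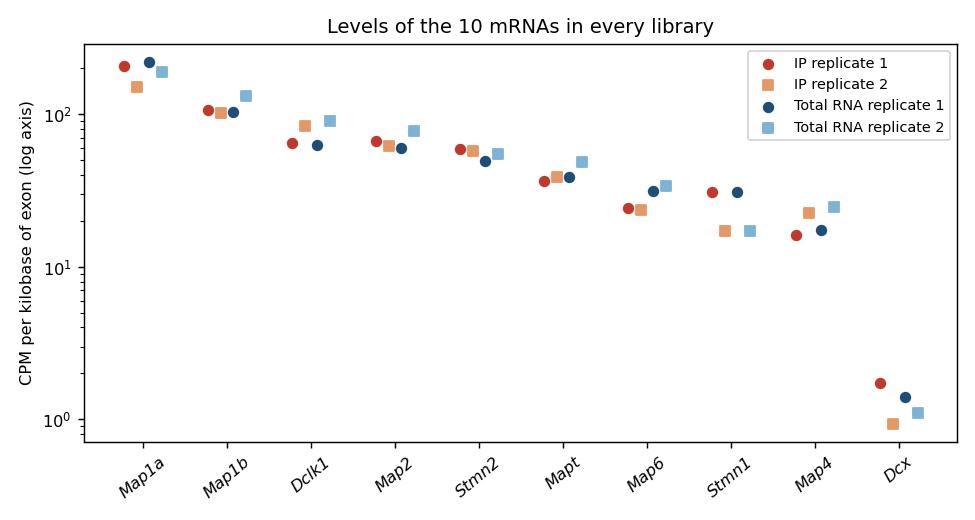
Level of each mRNA (x axis, ordered by its mean in total RNA) in CPM per kilobase of exon on a log axis. Each point is 1 library, circles for replicate 1 and squares for replicate 2. Map1a is highest at 151 to 220 and Dcx lowest at 0.937 to 1.74, and for most genes the 4 libraries lie close together.

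IP and total RNA were then compared within each replicate number, in a fit over all genes that treats the number as a block. Of the 10 mRNAs 1 was called lower in the IP and 0 higher by edgeR's quasi-likelihood test at an adjusted p under 0.05. Among all genes tested 7.55% were called lower and 6.63% higher, so a count of 1 in 10 is near the background. The members' median log2 fold change was -0.11, beside 0.011 over all genes. When the 2 libraries of a group were taken as unpaired replicates, 0 of the 10 were called, 0 of them had an unadjusted p under 0.05, and 0 of all 12336 genes were called, with 349 at an unadjusted p under 0.05.

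Map6 was the mRNA that fell. MAP6, also known as STOP, protects microtubules from cold-induced disassembly and is found in axons. The gene (ENSMUSG00000055407) lies on chromosome 7, from 99267447 to 99337137, on the plus strand. It measured 222 and 216 CPM in the IP against 287 and 310 in total RNA, so the groups did not overlap, as was also the case, in this direction, for 14.9% of all genes. The log2 ratio was -0.37 in replicate 1 and -0.52 in replicate 2. The fit put it at a log2 fold change of -0.45 ± 0.098 (SE), or 0.733-fold (edgeR adjusted p 1.82e-04). Map6 had the highest GC content of the 10, at 57.9%, and in a fit with an offset for GC content and exonic length its log2 fold change was -0.16 ± 0.10 with an edgeR adjusted p of 0.404, which ended the call.

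In the MAP2 and tau family, the fitted change was -0.093 for the dendritic member and -0.22 for the axonal member, and neither was called. Map2 (ENSMUSG00000015222, chromosome 1, 66175273 to 66442583) measured 1091 and 1016 CPM in the IP against 986 and 1278 in total RNA, and the groups overlapped. Its log2 ratio was 0.15 in replicate 1 and -0.33 in replicate 2, so it changed sign between the replicates. The fitted log2 fold change was -0.093 ± 0.10 (SE), with a 95% interval of -0.29 to 0.11, or a fold of 0.816 to 1.08. That interval rests on a dispersion shared across genes, and the ratios of both replicates lay outside it. In the fit without the block the SE was 0.23, so the interval sets no firm bound for Map2.

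Mapt, which encodes tau (ENSMUSG00000018411, chromosome 11, 104231390 to 104332090), measured 273 and 292 CPM in the IP against 293 and 368 in total RNA. The IP values again lay under those of total RNA without overlap, though IP replicate 2 and total RNA replicate 1 differed by about 1 CPM. The log2 ratio was -0.098 in replicate 1 and -0.33 in replicate 2, and the fitted log2 fold change of -0.22 ± 0.098 had an edgeR adjusted p of 0.124. Map4 (ENSMUSG00000032479, chromosome 9, 109931460 to 110083955) was steadier, with 244 and 340 CPM in the IP against 264 and 373 in total RNA. Its log2 ratio was nearly the same in both replicates, -0.11 and -0.13, and its fitted change was -0.12 ± 0.098.

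Both members of the MAP1 family make a long precursor that is cut into a heavy and a light chain. Map1a (ENSMUSG00000027254, chromosome 2, 121289600 to 121310832), which is prominent in dendrites of mature neurons, measured 2523 and 1836 CPM in the IP against 2671 and 2316 in total RNA. Its log2 ratio was -0.083 in replicate 1 and -0.33 in replicate 2, with a fitted change of -0.21 ± 0.11 and an edgeR adjusted p of 0.203. Map1b (ENSMUSG00000052727, chromosome 13, 99421446 to 99516540), an early protein of growing axons, measured 1699 and 1615 CPM in the IP against 1641 and 2085 in total RNA. Its log2 ratio went from 0.050 in replicate 1 to -0.37 in replicate 2, and the groups overlapped. The fitted change was -0.16 ± 0.11 with an edgeR adjusted p of 0.353.

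The stathmin of axons and growth cones was the only member with both IP libraries above both total RNA libraries. Stmn2 (ENSMUSG00000027500, chromosome 3, 8509360 to 8561606) measured 330 and 324 CPM in the IP against 277 and 309 in total RNA. Such a separation was seen in 16.9% of all genes. The log2 ratio was 0.25 in replicate 1 and 0.066 in replicate 2, and the fitted change of 0.16 ± 0.098 (SE) had an edgeR adjusted p of 0.311. Corrected for GC content and length by an offset it was -0.0049 ± 0.10, so its direction depended on that correction.

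Stmn1 (ENSMUSG00000028832, chromosome 4, 134468320 to 134473843), the stathmin of dividing and immature cells, measured 59.8 and 33.1 CPM in the IP against 59.2 and 33.0 in total RNA. Within each replicate the IP and total RNA values were nearly identical, with log2 ratios of 0.013 and 5.37e-04. The direction of its fitted change, 0.0074 ± 0.12, turned to -0.071 with library size only, to -0.010 with median-ratio size factors and to -0.29 ± 0.13 with that offset.

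In the doublecortin family, Dclk1 (ENSMUSG00000027797, chromosome 3, 55242364 to 55539068) measured 995 and 1278 CPM in the IP against 960 and 1384 in total RNA, with a fitted log2 change of -0.032 ± 0.10. Dcx (ENSMUSG00000031285, chromosome X, 143855842 to 143933311) measured 22.0 and 11.9 CPM in the IP against 17.6 and 13.8 in total RNA. It rested on 79 and 84 counts in total RNA and 304 and 132 in the IP. Its log2 ratio of 0.32 in replicate 1 and -0.22 in replicate 2 left a fitted change of 0.066 ± 0.19, whose 95% interval of -0.31 to 0.44 was the widest of the 10. With library size only it was -0.014, so no direction can be given for it.

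**Figure D2:**
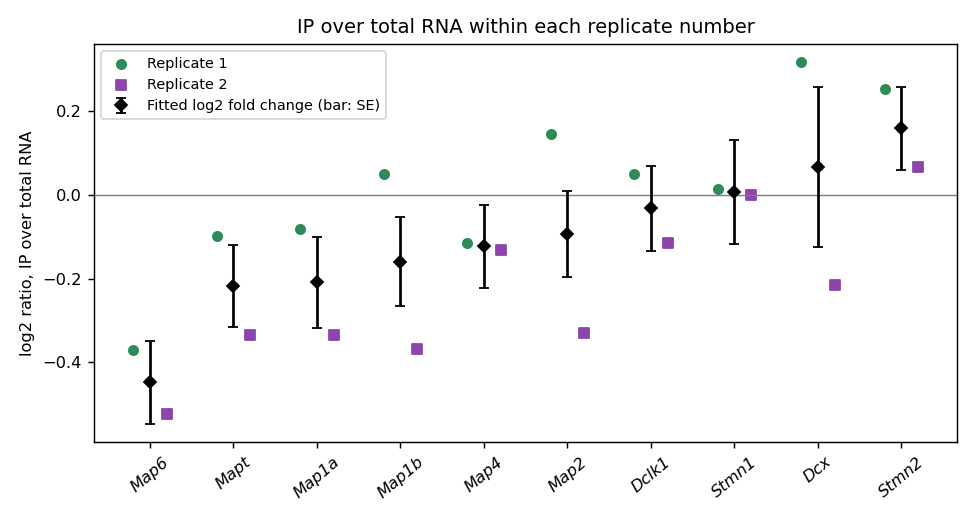
Log2 ratio of IP over total RNA (y axis) for each mRNA (x axis, ordered by the fitted change). Circles are replicate 1, squares replicate 2, and diamonds the fitted log2 fold change with its SE. Map6 is lowest at -0.45 and the others lie between -0.22 and 0.16, with the circle at or above the square for every gene.

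Ratios were higher in replicate 1 than in replicate 2 for all 10 mRNAs, by a median of 0.21 on the log2 scale, against 51.2% of all genes and a median of 0.0097. For Stmn1 and Map4 the gap was 0.013 and 0.017, and for Dcx it was largest at 0.53. The count stayed at 10 of 10 with library size only, under which 64.7% of all genes lay that way, and with median-ratio size factors, where 52.3% did. Among the 1503 genes with a mean over 100 CPM the share was 62.1%. Of the 10 mRNAs, 6 had a ratio of the same sign in both replicates, beside 66.5% of all genes. The difference between the pairs was not tested, since each pair holds 1 library of a kind.

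Dendritic and axonal proteins were set against each other on the within-replicate log2 ratio. Map2 and Map1a stood for dendrites, and Mapt, Map1b, Map6 and Stmn2 for axons. Map1b is found in dendrites as well, and the other 4 members were put in neither class. In replicate 1 the mean log2 ratio was 0.032 for the dendritic and -0.041 for the axonal mRNAs, a difference of 0.073. In replicate 2 it was -0.33 and -0.29, a difference of -0.043. The sign of the difference thus changed between the replicates, and its mean was 0.015. The axonal mRNAs spread more widely than the gap between the classes, from -0.37 to 0.25 in replicate 1 and from -0.52 to 0.066 in replicate 2. Map2 and Mapt alone differed by 0.24 in replicate 1 and 0.0039 in replicate 2. With 2 pairs the smallest two-sided exact p is 0.5, so no test was run, and mRNAs of one class are not replicates of each other.

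The ratio of the 10 mRNAs followed their GC content, which the choice of members did not use. GC content was taken over all annotated transcripts of a gene. From the GC-poor end, Dcx (41.6%), Stmn2 (43.6%), Map2 (44.0%) and Dclk1 (45.2%) had fitted log2 changes of 0.066, 0.16, -0.093 and -0.032. Stmn1 (47.5%) and Map1b (48.3%) stood at 0.0074 and -0.16. Map4 (51.6%), Map1a (55.4%), Mapt (55.4%) and Map6 (57.9%) stood at -0.12, -0.21, -0.22 and -0.45. Across the 10 mRNAs, which share their libraries, Spearman's rho was -0.915 and Pearson's r -0.873. Spearman's rho was -0.939 for the ratio of replicate 1, -0.661 for that of replicate 2 and -0.883 without Map6. Over 12328 genes the same Spearman correlation was -0.315, and over the 79 related microtubule genes tested, described below, it was -0.133. Exonic length did not order the 10 in this way, with a Spearman's rho of -0.103, although 9 of them were longer than the median gene of 4672 bases.

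The opening 60 coding bases of mRNAs from both ends of this order are shown with G and C in capitals, to make the difference in base composition visible. Map6 and Map1a had the highest GC content of the 10, and Stmn2 the lowest but for Dcx. They are the first coding bases of the longest complete coding transcript in GENCODE M21, on mm10 and read 5′ to 3′. Map6 begins at chr7:99268022-99268081 (plus strand) and Map1a at chr2:121289635-121289694 (plus strand).
Map6: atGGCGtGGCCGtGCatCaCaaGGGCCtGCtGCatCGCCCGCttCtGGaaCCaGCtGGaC
Map1a: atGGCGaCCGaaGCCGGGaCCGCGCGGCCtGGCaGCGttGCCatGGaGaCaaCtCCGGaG
Stmn2 begins at chr3:8509612-8509630 and goes on in the next coding exon at chr3:8541841-8541881 (plus strand).
Stmn2: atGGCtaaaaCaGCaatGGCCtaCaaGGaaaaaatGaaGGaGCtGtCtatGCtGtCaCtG
G and C made up 65.0% and 70.0% of these bases in Map6 and Map1a and 43.3% in Stmn2. Over the whole coding region the gap was smaller, with 60.5% in Map6 and 51.5% in Stmn2. The opening alone did not follow the order of the whole transcript, since Map1b reached 68.3% in its opening and 48.3% over its transcripts.

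Under the GC and length offset the order was gone by construction over all genes (Spearman's rho -0.0127), and among the 10 mRNAs it was -0.0909. Fitted changes then lay between -0.29 (Stmn1) and 0.061 (Map4), and 0 of the 10 were called. Map1a moved from -0.21 to 0.049 and Mapt from -0.22 to -0.035, while Map2 stayed near its former value at -0.086. Whether GC content acts in the cell or in the making of the libraries was not tested.

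**Figure D3:**
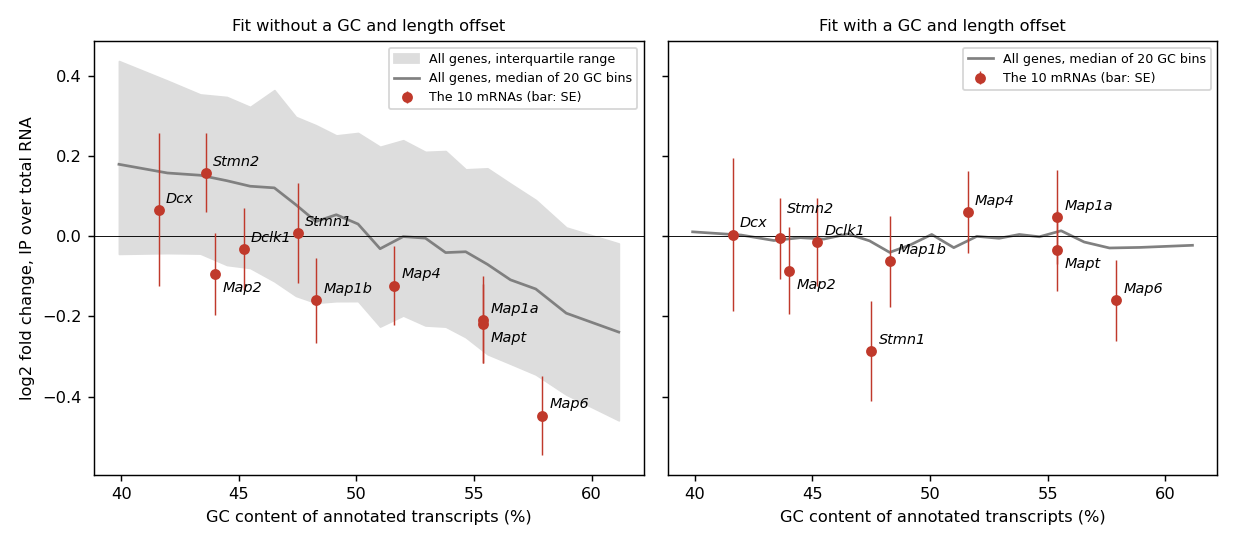
Log2 fold change of IP over total RNA (y axis) against GC content in percent (x axis), without (left) and with (right) an offset for GC content and exonic length. Red points are the 10 mRNAs with their SE, the grey line is the median of all genes in 20 bins of GC content, and the band on the left is the interquartile range. On the left the points fall from 0.16 for Stmn2 to -0.45 for Map6, and on the right they lie between -0.29 and 0.061.

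The replicate numbers differed more than IP and total RNA did for several members. Stmn1 was lower in replicate 2 by 0.85 on the log2 scale in the IP and by 0.84 in total RNA, a fold of 0.555 and 0.559. Dcx dropped by 0.88 in the IP and by 0.34 in total RNA, and Map1a by 0.46 and by 0.21. Map4 and Dclk1 lay the other way, with Map4 1.40-fold and 1.41-fold higher in replicate 2 and Dclk1 1.28-fold and 1.44-fold higher, in the IP and in total RNA. Map6 and Stmn2 differed least, within 0.16 on the log2 scale in either kind of library. Of the 10 members 0 passed a fold of 2 in both kinds of library, while 5.46% of all genes did so with the higher value in replicate 1 and 1.54% with the higher value in replicate 2. Astrocyte markers were 0.429-fold and 0.477-fold as high in replicate 2, in the IP and in total RNA, and microglial markers 0.113-fold and 0.0820-fold. The sum of the neuronal markers was 1.07-fold and 1.24-fold as high, but the genes of that list did not move together. Tubb3, Snap25, Syn1 and Nefl were higher in replicate 2 in both kinds of library. Rbfox3 was lower, at 191 against 309 CPM in the IP and 234 against 319 in total RNA. Nefm was lower in the IP, at 208 against 277 CPM, and slightly higher in total RNA. The part of these cell types in the members' values was not tested, and each replicate number has 1 library of a kind.

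**Figure D4:**
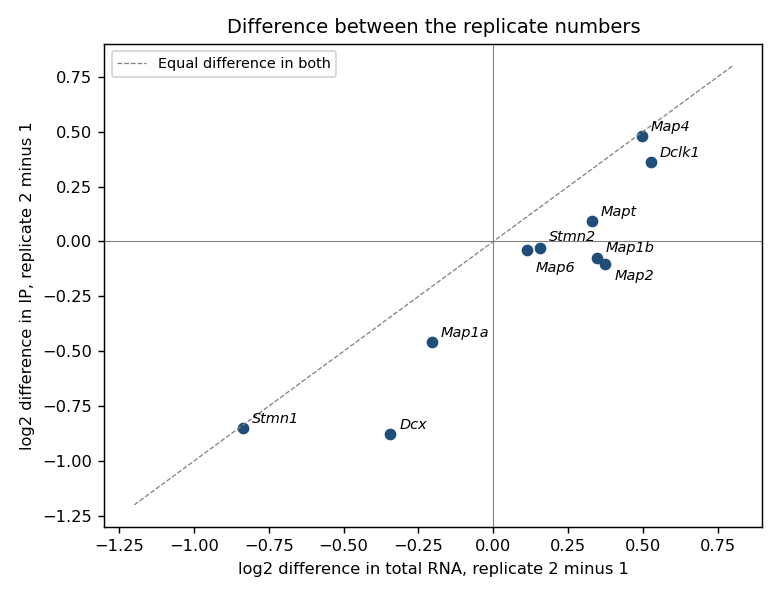
Log2 difference between replicate 2 and replicate 1 in total RNA (x axis) and in the IP (y axis), with 1 point for each mRNA. The dashed line marks an equal difference in both. Stmn1 and Dcx lie to the lower left and Map4 and Dclk1 to the upper right, and every point lies on or below the line.

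The mRNAs whose level over the 4 libraries was most like that of Map2 and Mapt were looked up by the Euclidean distance of centred log2 CPM among 7767 genes with a mean of at least 10 CPM. For Map2 they were Sema6a (distance 0.027), Smad4 (0.036) and Etfdh (0.039). For Mapt they were Coq9 (0.040), Kctd15 (0.043) and Tdp1 (0.047). Profiles over 4 libraries with small differences are matched by many genes.

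Other genes of the microtubule system were counted in the same fit. Of 81 listed, 79 were tested, and 14 were called lower and 4 higher in the IP by edgeR, which is 17.7% and 5.06% of them beside 7.55% and 6.63% of all genes. Their median log2 fold change was -0.024. In the fit without the block 0 were called. Under the GC and length offset 6 of the 79 related genes were called lower and 3 higher, beside 380 lower and 456 higher of the 12336 genes tested. By share, lower calls were still more frequent than among all genes and higher calls about as frequent, and no set test was run.

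Plus-end tracking proteins, which ride on the growing tip of the microtubule, had 7 of 14 genes called lower and 1 higher, with a median of -0.26. Under the offset 1 of the 7, Ckap5, was still called lower. Ckap5, a microtubule polymerase, measured 187 and 187 CPM in the IP against 334 and 273 in total RNA, and fell by 0.69 ± 0.099 (SE) on the log2 scale (edgeR adjusted p 8.08e-10). Ckap5 is GC-poor at 42.9%, and its change was -0.78 with the offset. Nav2 (-0.47) and Nav1 (-0.44), the neuron navigators, were called lower in the IP, but with the offset they stood at -0.14 and -0.22 with edgeR adjusted p of 0.496 and 0.215. The one called higher was Mapre3, an end-binding protein, at 0.32, and it was not called with library size only or with median-ratio size factors. Among other structural microtubule-associated proteins 4 of 11 were called lower and 0 higher, with a median of -0.24. Map7d1, of the MAP7 family that recruits kinesin to microtubules, measured 285 and 266 CPM in the IP against 440 and 433 in total RNA, a log2 fold change of -0.66 ± 0.098 with an edgeR adjusted p of 3.22e-09. With the offset it was -0.41 and was still called. Mtus2 stood at -0.48 and Map7d2 at -0.41. The other one called was Map1s, the short relative of Map1a and Map1b, at -0.39 ± 0.11 with an edgeR adjusted p of 0.00438. Under the offset Map1s stood at -0.0058 and Mtus2 at -0.28, and neither was called. Map7d2 stood at -0.55 there and was still called. Map9, which was not called without the offset, was called lower with it, at -0.36.

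Of the stathmins outside the 10, 1 was called higher. Stmn3 measured 532 and 516 CPM in the IP against 391 and 395 in total RNA, so both IP libraries lay above both total RNA libraries. Its log2 fold change of 0.42 ± 0.099 (SE) had an edgeR adjusted p of 6.24e-04, and it was 0.37 with the offset, where it was called as well. With library size only it was not called. Stmn3 had a GC content of 57.3%, close to that of Map6. Stmn4 stood at 0.17 and was not called. The 4 stathmins thus ran from 0.0074 (Stmn1) through 0.16 (Stmn2) and 0.17 (Stmn4) to 0.42 (Stmn3), and only Stmn3 was called. Under the offset Stmn1 stood at -0.29, Stmn2 at -0.0049 and Stmn4 at 0.019.

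Of 14 tubulin genes 1 was called higher and 0 lower. This was Tuba1b at 0.42 ± 0.14 with an edgeR adjusted p of 0.0194. Under the offset it stood at 0.35 and was not called (edgeR adjusted p 0.102), nor was it with library size only. Tubulin genes have near-identical copies, so their counts are uncertain. Of the severing enzymes, which cut microtubules along their length, Katnal1 was called higher at 0.61 ± 0.16. Fign and Fignl1 held no more than 7 counts in a library and were not tested. Of 9 kinases of microtubule-associated proteins, Mark4 (-0.51) and Mark1 (-0.43), which phosphorylate the microtubule-binding repeats of tau and MAP2, were called lower and 0 higher, of which Mark4 lost its call under the offset (-0.26). None of the 3 minus-end proteins, 5 CRMPs, 12 tubulin modification enzymes and 5 tubulin folding cofactors was called by edgeR. The most abundant of each per length stood at -0.099 (Camsap2), 0.031 (Dpysl2), -0.059 (Ttll7) and 0.28 (Tbcb).

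**Figure D5:**
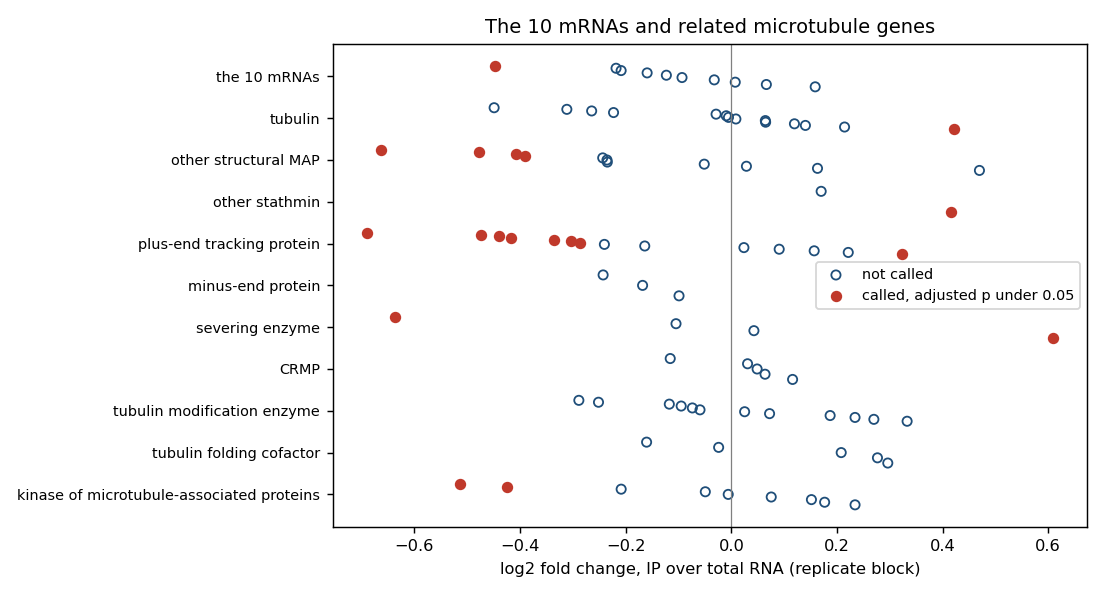
Log2 fold change of IP over total RNA (x axis) in the fit with the replicate block, by class of gene (rows), with 1 point for each gene tested. Filled red points were called at an adjusted p under 0.05 and open points were not. The 10 mRNAs lie between -0.45 and 0.16 with 1 call, and plus-end tracking proteins hold 7 calls to the left and 1 to the right.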

How the data were processed

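Each library came with 1 deposited file of unnormalised counts for every gene. Per the file headers the authors counted with featureCounts 1.5.3, stranded, against the mm10 genes of a single-cell reference, without the options for multi-mapping or overlapping reads. Per the study's methods, adapters were removed with cutadapt and STAR placed the reads on mm10. Removal of PCR duplicates is not given in the sources used here, so intervals for shares cover counting error only. Of 31053 identifiers 31011 carried a symbol in GENCODE M21, on the same build.

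The test was the two-sided quasi-likelihood test of edgeR 4.0.16 (R 4.3.3) between IP and total RNA, after filterByExpr (12336 genes left) and TMM scaling, with Benjamini-Hochberg adjustment over the genes left. The replicate number was a block, since the study took total RNA from the samples before the IP and divided IP by total counts. Deviations of same-numbered libraries from their group means had a Pearson correlation of 0.733 across genes. With the block each gene keeps 1 residual degree of freedom, and the fit took the dispersion from the trend over all genes. Its p-values therefore lean on that trend and measure the spread between these libraries, for which separate cultures are not stated. The biological coefficient of variation was 7.93% with the block and 29.7% without. On simulated data with 200 genes changed by a fold of 2, the blocked fit recovered 149 with 9 false calls, and the unpaired fit recovered 0. The largest change of a member was smaller, at -0.45 on the log2 scale for Map6. The simulation therefore gives no rate of recovery for changes of the members' size. Whether the block is the right choice for these libraries was not tested by it. Log2 ratios within a replicate number are differences of log2 CPM with a prior count of 2. The offset for GC content and length was fitted by splines with 4 degrees of freedom each. DESeq2 1.42.0 and limma-voom (limma 3.58.1) served as alternatives.

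The members and gene lists were chosen with earlier results of these data known. Genes named beside the 10 members were the called genes of each related class (at most 3, by size of change), the most abundant gene per length of a class without a call, and the 3 nearest profiles to Map2 and Mapt. Stmn4, Map1s, Map9, Mapre3, Fign, Fignl1 and the genes sharing sequence with members were named in addition, after their values were seen. Some items are not reported here.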

Additional observations from a re-analysis of the deposited data

How the results depend on the processing

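The replicate block decided the calls. With no replicate block 0 genes were higher and 0 lower in place of 818 and 931, 0 of the 10 members were lower, and 0 related microtubule genes were called either way. Other settings kept the block. Library size only gave 283 higher and 878 lower genes, DESeq2 158 and 382 (7653 genes had no adjusted p there), the offset for GC and length 456 and 380, and a threshold of 0.01 for the adjusted p 452 and 602. Library size only moved the median log2 fold change of all genes from 0.011 to -0.073. Of the members, 1 (Map6) was called lower in 8 of 9 blocked fits, and 0 with the GC and length offset. Related genes called higher numbered 1 with library size only, 1 in DESeq2 and 2 at an adjusted p under 0.01, and those called lower 8 in DESeq2 and 6 with the offset. limma-voom, chosen after seeing the data, kept every such count within 1.5 times.

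Some small changes turned direction. With the GC and length offset Map1a was at 0.049, Map4 at 0.061, Stmn1 at -0.29 and Stmn2 at -0.0049. Library size only gave -0.014 for Dcx and -0.071 for Stmn1, which was at -0.010 with median-ratio size factors and -0.011 in DESeq2. Leaving out 1 library, without the block, gave 0 genes higher and 1 to 20 lower, and 0 members and 0 related genes called. Leaving out 1 replicate number allowed no test. Over both ways the log2 changes ran from -0.44 to 0.0056 for Map1a, -0.37 to 0.050 for Map1b, -0.33 to 0.15 for Map2, -0.40 to 0.14 for Map4, -0.40 to 0.48 for Dcx, -0.28 to 0.24 for Dclk1 and -0.48 to 0.49 for Stmn1. Map6 stayed between -0.52 and -0.37. Among these, the unblocked fit without total RNA replicate 2 called 3 genes lower and put Map2 at 0.092, Dcx at -0.058 and Stmn1 at -0.35, and that without IP replicate 1 put Map4 at 0.096. The dendritic minus axonal difference ran from -0.043 to 0.073 over the replicate numbers and was 0.12 for Map2 and Mapt alone. At a fold of 1.5 in place of 2, 1 member (Stmn1) was higher in replicate 1 in both kinds of library. The causes were not tested. Depth limited Dcx most, with 79 counts in total RNA replicate 1.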
